A study of Mus musculus with 2 samples.

Results

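Timp3, Adamts2, Adamts5, Adam12 and Mmp12 were followed in mouse embryonic fibroblasts cultured with and without FGF2. They encode a tissue inhibitor of metalloproteinases and 4 metalloproteases, of which Mmp12 is a matrix metalloproteinase in the strict sense and the others belong to the ADAM and ADAMTS families. The 5 genes were found on the array by their NCBI gene numbers, which the probe identifiers hold, and they have 6 probes, 2 of them for Timp3. They are 5 of 7409 genes that could be named on an array of 24044 probes. The genes were picked because these same 2 arrays showed them to differ, or nearly so, in signal, so their values are given as a description and were not tested.

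The cells came from NMRI mice, an outbred stock, and had been treated with mitomycin C, which crosslinks DNA and so blocks division. Cells inactivated in this way serve as feeder layers for pluripotent stem cells. Both cultures were plated on gelatine at 55000 cells per square centimetre and then kept for 24 h in human embryonic stem cell medium based on serum replacement. The control received no FGF2 and the other culture received 40 ng/ml of this fibroblast growth factor. Each group had 1 sample on 1 array, so there is no measure of variation between cultures, and the treatment cannot be told apart from any other way in which the cultures differed.

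Metalloproteases are zinc enzymes that cut matrix proteins, cell surface proteins and growth factor carriers outside the cell. Matrix metalloproteinases degrade collagens, elastin and other matrix components, ADAM proteases are mostly membrane-bound and shed ectodomains, and ADAMTS proteases are secreted and carry thrombospondin repeats. Tissue inhibitors of metalloproteinases occupy the active site. TIMP3 is the member of that family that is bound to the matrix, and it inhibits matrix metalloproteinases as well as ADAM17 and the aggrecanases ADAMTS4 and ADAMTS5.

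The deposited files hold no probe sequences, so the DNA shown is that of promoters. The RefSeq promoter table for GRCm38.p6 matched 3 of the 5 genes, with 2 annotated starts for Mmp12. It has no entry for Adamts5 and Adam12, which were lower with FGF2 like Timp3 and Adamts2. A link between motifs and the direction of the difference was not tested. For Mmp12 only the window that holds a match is printed. Each line gives the 250 bases before an annotated start on the plus strand, with matches in capitals to GGGCGG (the GC box bound by SP1) or TGANTCA (the AP-1 site bound by FOS and JUN proteins), both searched on both strands.
Timp3, chr10:86300162-86300411: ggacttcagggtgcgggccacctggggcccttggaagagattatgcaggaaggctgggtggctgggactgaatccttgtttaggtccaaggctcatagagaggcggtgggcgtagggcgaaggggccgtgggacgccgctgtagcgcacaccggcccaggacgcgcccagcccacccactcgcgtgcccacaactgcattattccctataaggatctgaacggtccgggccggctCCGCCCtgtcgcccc
Adamts2, chr11:50601835-50602084: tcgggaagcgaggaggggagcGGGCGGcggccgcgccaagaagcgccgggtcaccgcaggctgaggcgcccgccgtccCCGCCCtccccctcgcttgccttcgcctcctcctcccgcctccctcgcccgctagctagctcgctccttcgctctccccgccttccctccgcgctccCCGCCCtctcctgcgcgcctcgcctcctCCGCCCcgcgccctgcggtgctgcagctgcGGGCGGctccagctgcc
Mmp12, second start, chr9:7347124-7347373: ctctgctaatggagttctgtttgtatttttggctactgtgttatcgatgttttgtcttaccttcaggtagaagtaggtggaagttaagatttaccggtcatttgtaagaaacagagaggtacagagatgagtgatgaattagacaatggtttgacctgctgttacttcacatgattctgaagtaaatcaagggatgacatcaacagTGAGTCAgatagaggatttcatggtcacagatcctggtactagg
The Timp3 window holds 1 GC box, which begins 15 bases before the start, and the Adamts2 window holds 5, of which the nearest begins 17 bases before the start. GC content is 65.6% for Timp3 and 78% for Adamts2, against a median of 52.4% over all 32851 windows of this length in the table. GC boxes occur in 32.7% of those windows. The Mmp12 window shown holds 1 AP-1 site, which begins 44 bases before the start, a motif found in 6.75% of all windows. Neither motif is in the window of the first Mmp12 start (chr9:7344147-7344396), and TATAAA, present on either strand in 12.4% of windows, is in none of the 4. GC content is 40% and 39.6% in the windows of the first and second Mmp12 start. These matches describe the letters and are not evidence of binding.

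On the control array 7599 probes were detected, and 7424 on the FGF2 array, detected meaning a score of at least 0.99 in the deposited tables. The lowest detected signals were 194.6 and 184.9, and the median signals of undetected probes were 136.5 and 133.4. Signals were quantile normalized. A log2 ratio is FGF2 minus control, and its ± is the combined bead error of the 2 arrays, which covers variation within arrays only. Where a probe was detected on 1 array, the ratio is a bound against the lowest detected signal of the other array. Of 5 named fibroblast markers all were detected on both arrays, with summed deposited signals of 29188.3 and 14751.2. Col1a1, Col1a2 and Fbln1 among them were at least 2-fold lower with FGF2, while Dcn (log2 ratio −0.099) and S100a4 (0.14) were not, and what part a shift in cell types has in the results was not tested. There were 3005 named genes with a detected signal in either culture. At least 2-fold lower with FGF2 were 78 of them (2.6%), and 44 (1.46%) were higher by as much, so 36.1% of these differences were increases. This split was 19.9% with signals as deposited and 46.6% in the authors' value table. At 1.5-fold there were 204 lower (6.79%) and 159 higher (5.29%) genes. Of the 5 genes, 4 were at least 2-fold lower. Mmp12 was at least 1.86-fold higher, a bound that passes 1.5-fold and does not settle whether it reached 2-fold. The choice of genes fixes these counts.

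Timp3 was lower with FGF2. Its brighter probe (scl0021859.1_62-S) had a deposited signal of 3027.3 in control, with a bead standard deviation of 113.4, and of 361.3 with FGF2, with a bead standard deviation of 11.8. The FGF2 culture was the low one, at 2.05 times the lowest detected signal after normalization. This is a 7.20-fold reduction (log2 ratio −2.85 ± 0.072). At least 6 of the 3005 genes had a lower ratio, because the values of genes detected in control only are bounds. In bulk RNA, fewer cells with a transcript and less transcript per cell cannot be told apart.

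The second Timp3 probe (scl021859.7_4-S) gave 388.5 in control and 145.3 with FGF2, the latter with a detection score of 0.790. It was therefore detected in control only, and its ratio is a bound of at least 1.88-fold lower. Both probes were lower with FGF2, and the dimmer one does not set an upper limit on the reduction. In the authors' value table, which has a background subtracted, the brighter probe was at 2891.89 and 292.233, a 9.90-fold reduction. There the dimmer probe stood at 253.07 in control and was empty with FGF2, which makes it at least 3.79-fold lower.

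Timp2, the other inhibitor of this family with a detected probe, also acts in the activation of pro-MMP2 at the cell surface. Its signal was 8218.9 in control and 6118.8 with FGF2, which after normalization is 1.21-fold lower (−0.27 ± 0.068). The 2 genes are given side by side, and their difference was not tested. Reck, a membrane-anchored inhibitor, was under the detection threshold on both arrays, with signals of 185.2 and 130.8. Its control score of 0.976 was the highest among the undetected probes of these families.

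**Figure D1:**
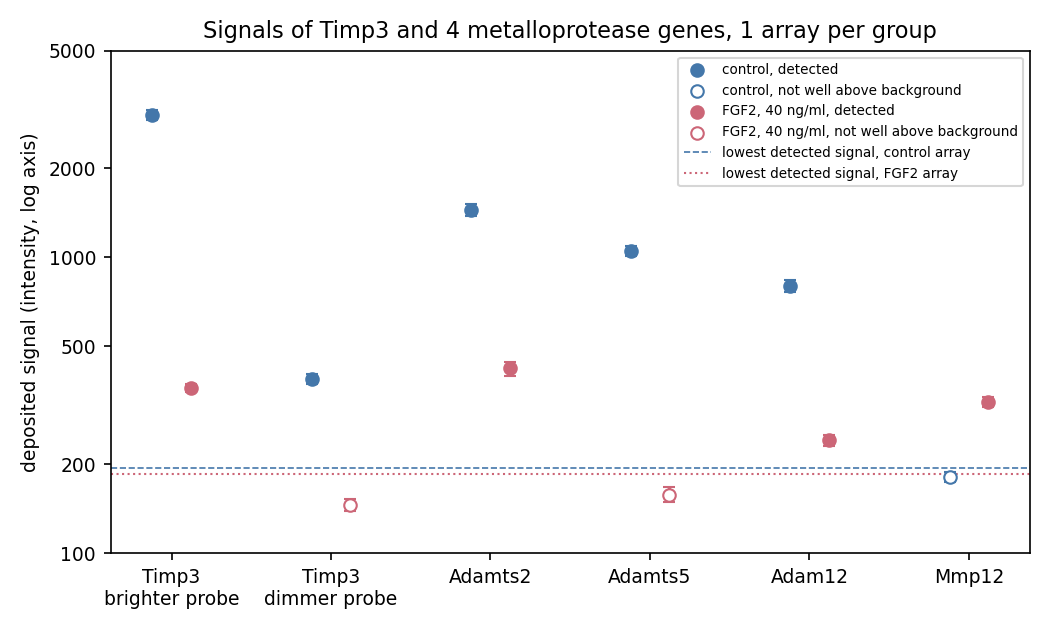
Deposited signal (intensity, log axis) of each of the 6 probes in control and with FGF2, 1 array each, with bars for the bead standard deviation and lines at the lowest detected signal of each array. The FGF2 points lie under the control points for all probes but that of Mmp12, and open points, which lie under the lines, are not well above background.

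Adamts2 and Adamts5, the ADAMTS proteases among the described genes, were lower with FGF2. Adamts2 encodes the procollagen N-proteinase, which removes the amino-terminal propeptides of fibrillar procollagens. Its probe (scl00216725.1_271-S) read 1446.9 in control, with a bead standard deviation of 64.7, and 421.6 with FGF2, with a bead standard deviation of 22.9. Both signals were detected, and the reduction was 2.89-fold (−1.53 ± 0.10). The authors' value table gives 1311.49 and 369.307, a 3.55-fold reduction.

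Adamts5 encodes an aggrecanase, which cuts the proteoglycans aggrecan and versican. Its probe (scl0023794.2_235-S) read 1054.3 in control, with a bead standard deviation of 40.7, and 157.9 with FGF2, with a bead standard deviation of 9.4. The FGF2 signal had a detection score of 0.893 and was not well above background, so only the control level was measured. Adamts5 was at least 5.02-fold lower with FGF2, and against the lowest value in the authors' table at least 13.7-fold lower.

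Adam12 encodes meltrin alpha, a membrane-anchored or secreted protease of mesenchymal and muscle cells. Its probe (scl011489.1_320-S) read 800.2 in control, with a bead standard deviation of 37.8, and 241.3 with FGF2, with a bead standard deviation of 10.3. Both were detected, the FGF2 signal at 1.34 times the lowest detected one after normalization. The reduction was 2.87-fold (−1.52 ± 0.092). With the background subtracted in the authors' table, from 664.758 to 138.964, it was 4.78-fold.

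Side by side, the log2 ratios were −2.85 for Timp3, −1.53 for Adamts2 and −1.52 for Adam12, and differences among them were not tested. The order of Timp3 and Adamts5 is not settled, because the Adamts5 value is a bound. In the authors' value table the Adamts5 bound exceeds the Timp3 reduction, and Adam12 exceeds Adamts2.

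Mmp12, the macrophage elastase gene, was the member with the higher signal with FGF2. Its probe (scl0017381.2_217-S) read 181.2 in control, with a bead standard deviation of 7.6, and 324.5 with FGF2, with a bead standard deviation of 12.6. The control score of 0.961 fell just under the threshold of 0.99, so Mmp12 was detected with FGF2 only. It was at least 1.86-fold higher (0.89), a bound that does not settle whether it reached 2-fold. At that bound 67 of the 3005 genes had a higher ratio, so the rank of Mmp12 is not settled either. Against the lowest control value in the authors' table, its FGF2 value of 245.307 was at least 4.15-fold higher. With the detection threshold lowered to 0.95, Mmp12 counted as detected on both arrays, and its measured ratio was 1.98-fold higher (0.98).

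Since macrophages are the best known source of Mmp12, markers of macrophages and leukocytes were read beside it. Of 7 with a named probe, 1 was detected in control and 2 with FGF2, and their summed deposited signals were 1244.5 and 1145, background included. Cd53, a leukocyte tetraspanin, read 176.7 and 318.7 and was at least 1.82-fold higher with FGF2. Lyz2, the macrophage lysozyme, read 374.8 and 220.2 on its brighter probe and had a log2 ratio of −0.58. Its dimmer probe read 150.5 and 148.8 and was not detected on either array. Cd68, Csf1r, Itgam, Msr1 and Ptprc were not well above background on either array, with the highest signal that of Csf1r in control (167). The part of such cells in the Mmp12 signal was not tested.

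**Figure D2:**
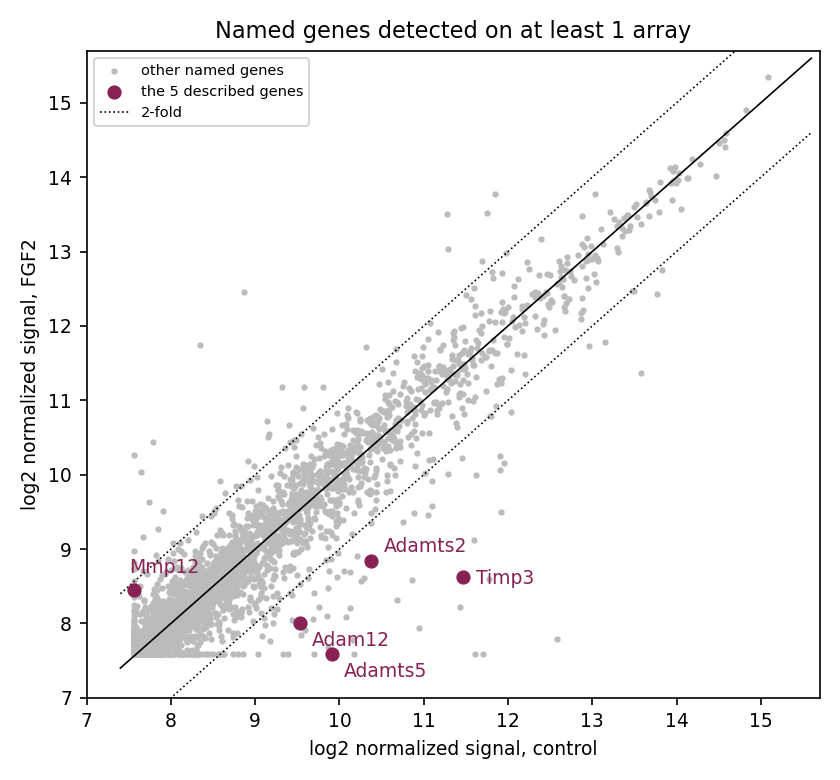
Log2 normalized signal with FGF2 against control for the 3005 named genes detected on at least 1 array (grey) and the 5 genes (named), with a solid line at equality and dotted lines at 2-fold. Timp3, Adamts2, Adamts5 and Adam12 lie under the lower 2-fold line, Adamts5 on the floor of the FGF2 array. Mmp12 lies on the floor of the control array, so its place within the 2-fold lines is a bound.

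The wider families show which other proteases and inhibitors could be read in these cells. Lists of matrix metalloproteinases, ADAM and ADAMTS genes and inhibitors hold 89 genes, with named probes for 37 and a detected signal in either culture for 13. Of these 13, 6 were lower by 2-fold or more with FGF2, and 5 of the 13 are the genes chosen from this contrast. None was measured to be higher by that much, against 1.46% of all named genes, and the value of Mmp12 is a bound. Among the 8 others, 2 were at least 2-fold lower, against 2.6% of all named genes, with a median log2 ratio of −0.23 against 0.028 for all. Whether that share stands apart from the background was not tested. Under the alternative processing given below, the family count of 6 ran from 5 to 7, among 10 to 14 detected genes.

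The 2 others that were 2-fold lower were Adam23 and Adamts4. Adam23, an ADAM protein without protease activity, read 903.1 in control and 315.4 with FGF2 and was 2.44-fold lower (−1.29 ± 0.086). Adamts4, the other main aggrecanase, read 1447.8 and 593.2 and was 2.05-fold lower (−1.03 ± 0.068), which is within its bead error of the 2-fold line. Of the 4 detected genes of the ADAMTS list, Adamts2, Adamts5 and Adamts4 were at least 2-fold lower, against 2.6% of all named genes. Adamts2 and Adamts5 were chosen from this contrast, so the count is a description. The fourth detected gene of the list, Adamtsl5, encodes an ADAMTS-like protein that lacks the protease domain. It read 270.6 and 333.3 (0.50 ± 0.092).

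The other detected ADAM genes were measured on both arrays and lay within 1.5-fold. Adam17, the sheddase that TIMP3 inhibits, read 633.5 and 469.2 (−0.19 ± 0.069). Adam19, or meltrin beta, read 798.7 and 767.7, and its normalized ratio was 0.20 ± 0.076.

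Mmp19, a secreted metalloproteinase, read 274.1 and 243.4 (0.0059 ± 0.085). Mmp17, a metalloproteinase held at the membrane by a lipid anchor, read 275 and 147 and was detected in control only, at least 1.35-fold lower. In the authors' value table it was at least 2.09-fold lower. The values of Mmp17 and Mmp12 are both bounds and have no order in size.

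For 24 genes of the families no probe was detected. These were Mmp1a, Mmp16, Mmp24 and Mmp28, the ADAM genes Adam4, Adam5, Adam6a, Adam6b, Adam7, Adam10, Adam11, Adam22, Adam25, Adam26a, Adam28, Adam30 and Adam34, the ADAMTS genes Adamts1, Adamts8, Adamts10, Adamts12, Adamts16 and Adamts18, and Reck. Their 28 probes read between 99 and 185.2, and a difference at that level could not be measured. Mmp2, Mmp3, Mmp9, Mmp13, Mmp14, Timp1 and Timp4 have no probe that could be named and were not analysed here.

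**Figure D3:**
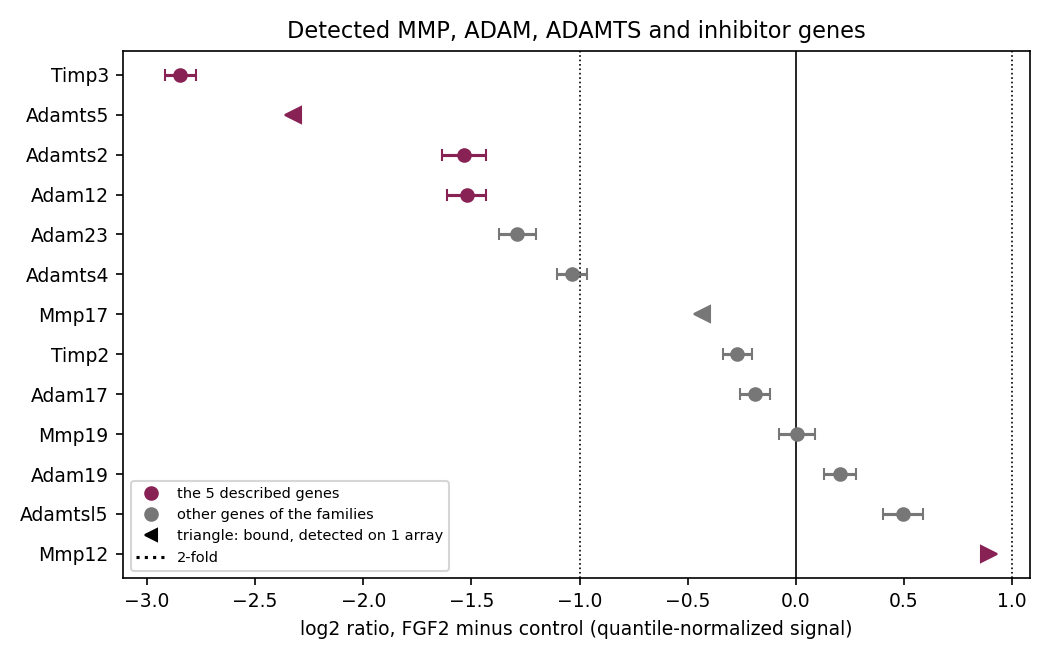
Log2 ratio (FGF2 minus control) of the 13 detected genes of the MMP, ADAM, ADAMTS and inhibitor lists, with bars for the bead error and triangles for bounds. Timp3, Adamts5, Adamts2, Adam12, Adam23 and Adamts4 lie past 2-fold lower, and the other 7 lie between −0.44 (Mmp17, a bound) and 0.89 (Mmp12, a bound).

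Transcripts of proteins that these proteases cut were read from a list of 14 known substrates, with named probes for 10 and a detected signal for 8. Reductions of 2-fold or more were seen for 7 of the 8 against 2.6% of all named genes, and no increase of that size was seen, against 1.46%, with a median of −1.60 against 0.028 for all genes. The list was chosen with earlier results of these same arrays known, so the count is a description. The procollagen chains that Adamts2 cuts were lower in the same culture. Col1a1 was at −2.21, Col1a2 at −2.28, Col3a1 at −1.79 and Col5a1 at −1.33.

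For the aggrecanases, the versican gene Vcan read 1047.6 and 426.8 on its brighter probe and was 2.05-fold lower (−1.04 ± 0.066). Its dimmer probe read 222.8 and 165 and was detected in control only. Col2a1 and Ncan, the latter the gene of the proteoglycan neurocan, were not well above background, and Acan and Bcan have no named probe. Eln, which encodes elastin, a substrate of MMP12, read 630.2 and 207.7 and was 2.66-fold lower, opposite to Mmp12, whose value is a bound. The Eln signal with FGF2 was at 1.14 times the lowest detected one after normalization. In the authors' value table the Eln reduction was 5.16-fold.

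ADAM12 cleaves insulin-like growth factor binding proteins 3 and 5, as known for the human enzyme. Their genes went opposite ways, with Igfbp3 at 1789.2 and 297.5 (−2.36 ± 0.055) and Igfbp5 at 3354.9 and 4364.6 (0.54 ± 0.065). Igfbp5 was under 1.5-fold higher.

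Other genes of procollagen processing were less far apart than Adamts2. Pcolce, which enhances the removal of carboxy-terminal propeptides, read 3946.2 and 1780 and was 1.90-fold lower (−0.93 ± 0.096). Bmp1, the enzyme of that step, read 1504.4 and 995.5 and was 1.27-fold lower (−0.35 ± 0.064). Mep1b and Tll1 were not detected. The log2 ratios thus ran from −1.53 for the N-proteinase to −0.35 for the C-proteinase. Past 2-fold was 1 of the 3 detected genes, against 2.6% of all named genes. That gene is Adamts2, which was chosen from this contrast, so the count is a description.

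Lrp1, the endocytic receptor that takes up TIMP3 and ADAMTS5, read 409.2 and 342.4 and had a log2 ratio of −0.036 ± 0.074, within its bead error of 0. Of the plasminogen system, 1 of 8 listed genes has a named probe, Serpinf2, and it was not detected.

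Likeness was measured over the 2 arrays as the distance between genes in the plane of their 2 log2 signals, among 2636 other named genes detected on both. Nearest to Timp3 were Ccdc80, at a distance of 0.31 and with a log2 ratio of −3.18, and Sfrp1, at 0.40 and −3.20. Ccdc80 encodes a matrix-associated protein and Sfrp1 a secreted Wnt antagonist. Nearest to Adamts2 were Sulf1, which removes sulfate groups from heparan sulfate, at 0.18, and the smooth muscle actin gene Acta2, at 0.26. Nearest to Adam12 were Parm1 at 0.10 and the chemokine gene Cxcl14 at 0.12. This distance reads probe brightness as well as the difference between cultures, so it says only that the signals were similar on these 2 arrays.

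The direction of all 5 genes held under each of the 11 other ways of processing that gave a value for them, while the sizes did not. The ratios were wider where a background was subtracted. With the median of undetected probes taken off, Timp3 reached 10.4-fold, Adamts2 3.68-fold, Adam12 4.95-fold and Adamts5 at least 14.6-fold lower. Mmp12 passed 2-fold in the 3 settings with a background correction, with bounds of 1.11, 2.05 and 2.005 on the log2 scale, and in no other. Timp3 came under 2-fold only where its dimmer probe, a bound, stood for the gene.

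**Figure D4:**
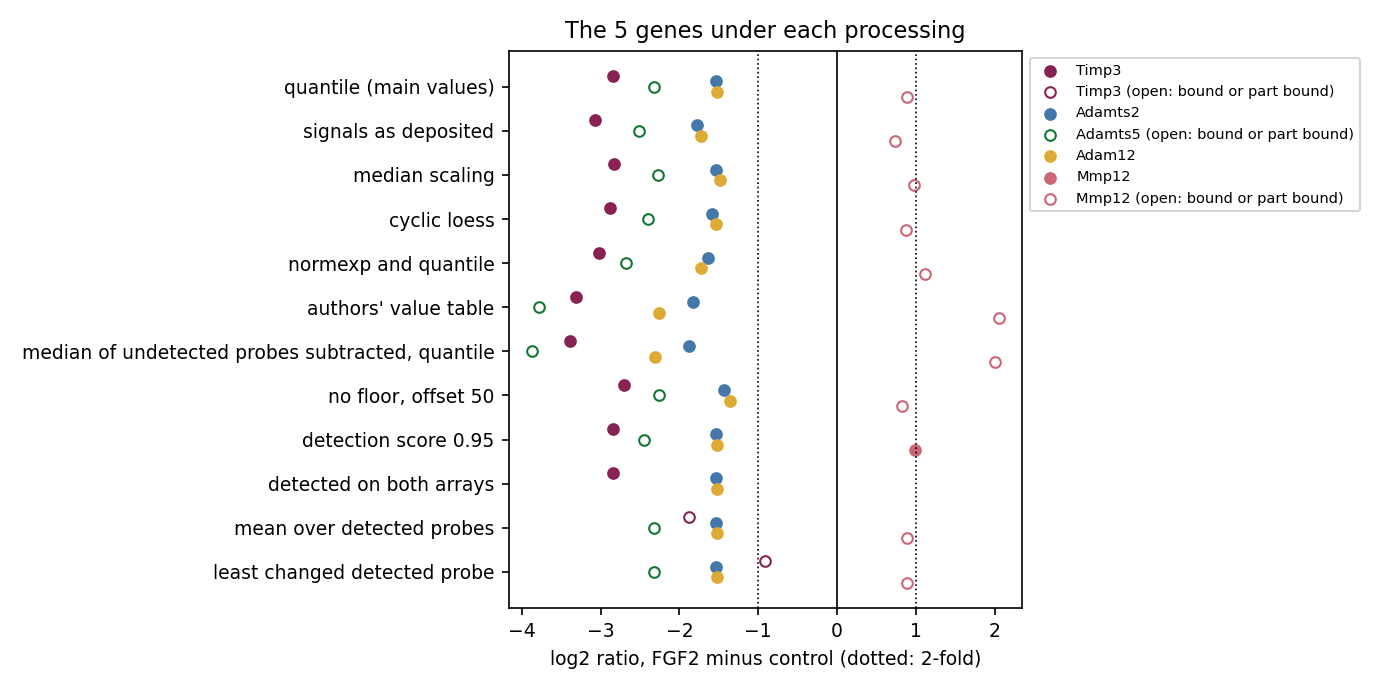
Log2 ratio (FGF2 minus control) of the 5 genes under the main processing and each alternative, with filled points for ratios measured on both arrays and open points for bounds. No point crosses 0, Adamts2 lies between −1.88 and −1.44 and Adam12 between −2.31 and −1.36, and Mmp12 lies on either side of the 2-fold line.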

How the data were processed

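Total RNA from 2 cultures was measured on 1-colour Illumina bead arrays, 1 per group, grouped by titles and descriptions. Per the labels' protocols, 300 ng of RNA was amplified linearly with 6 h of in vitro transcription. BeadStudio 1.0 was used, per the submitters' processing notes, with its normalization not given in the sources used here. The deposited tables hold, per the file headers, an average signal and a bead standard deviation, both as intensity, and a detection score from 0 to 1. The number of beads is not given, so the deviation may be either the spread among beads or the error of their average. The authors' value table is a second, linear intensity that is not centred per gene. In control it equals the deposited signal less 135.4, and with FGF2 it follows a line of slope 1.278 over a background of 132.6, with medians of 262.1 and 276.8. What set that slope is unknown. Its entries are empty under a score of 0.99.

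Signals were quantile normalized (limma 3.58.1, R 4.3.3), set to the lowest detected normalized value of each array (188.45 and 191.7) where lower, and taken to log2. Probes scoring at least 0.99 on either array counted as detected, and each gene was read from its brightest probe by mean signal. Identifiers of the form scl0 or scl00 plus a number were read as NCBI gene numbers. Of 9523, 93.3% are listed in RefSeq for GRCm38.p6, against 36.1% after adding 50 to each. Names rest on that reading and not on a probe annotation. The code was tested on simulated data. No p-value was computed, since each group has 1 array. The number of arrays limits the precision. Genes and lists were chosen with earlier results of these data known. Named are the 5 genes, all detected genes of the 4 family lists, genes of the other lists past 1.5-fold or nearest 0, and the nearest genes in signal. Alternatives changed scaling, background, floor, detection score and choice of probe.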

Additional observations from a re-analysis of the deposited data

How the results depend on the processing

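With signals as deposited, Timp3 was at −3.07, Adamts2 at −1.78 and Adam12 at −1.73 on the log2 scale, and 28 named genes were at least 2-fold higher. With normexp and quantile normalization, Timp3 was at −3.02, Adamts5 at −2.68, Adam12 at −1.73 and Mmp12 at 1.11, so that 1 of the 5 genes and 1 gene of the families was 2-fold higher. In the authors' value table the values were −3.31 for Timp3, −1.83 for Adamts2, −3.78 for Adamts5, −2.26 for Adam12 and 2.05 for Mmp12, again with 1 gene of the 5 and 1 of the families higher, and with 158 named genes lower and 138 higher. Subtracting the median of undetected probes gave −3.38, −1.88, −3.86, −2.31 and 2.005 in the same order, 1 gene of the 5 and 1 of the families higher, and 179 named genes lower and 117 higher. Timp3 was at −2.70 with an offset of 50 and no floor, at −1.88 as a mean over both probes and at −0.91 on its least changed probe. The last 2 follow from using the bound of the dimmer probe. For the other settings the cause was not tested. The median of all genes was 0.028 in the main values and −0.14 with signals as deposited. Less each setting's own median, Adamts2 lay between −1.94 and −1.46 and Adam12 between −2.37 and −1.39. Requiring detection on both arrays leaves out Adamts5 and Mmp12, whose dim sides were limited by background. No paired analysis was possible because each group has 1 sample, and for the same reason no replicate could be left out.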

Other observations

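Genes of AP-1, ETS and RUNX transcription factors, known regulators of metalloprotease genes, were read beside these results. Of 14 listed, 7 have a named probe and 5 were detected. The ETS factor gene Etv1 was the 1 gene at least 2-fold higher with FGF2, against 1.46% of all named genes. It read 253.3 and 664.9 on its brightest probe (1.60 ± 0.066). A second Etv1 probe read 189.3 and 206.2, and the remaining one was not detected. The AP-1 genes Junb, at 434.5 and 470.9 (0.36 ± 0.062), and Fosl2, at 644.6 and 604.9 (0.16 ± 0.080), were within 1.5-fold, as were Ets2 (0.43) and Runx1 (−0.50). Ets1 and Runx2 were not well above background on either array.

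Chondrocyte and osteoblast markers, read because aggrecanases are known from cartilage, had a detected probe for 1 of 3 named genes. That was Spp1, which encodes osteopontin, at 3911.2 in control and 13171.2 with FGF2, or 3.80-fold higher (1.93 ± 0.079). Bglap and Col2a1 were not well above background. The endothelial marker Pecam1, the 1 named of its list, was not detected, with signals of 153.2 and 129.6. Of 3 named epithelial markers, Cldn4 read 202.4 and 187, Krt18 read 191.1 and 268.5 and Krt8 was not detected.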
